A study of Mus musculus with 10 samples.

Results

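The collagen genes are described here across jejunum, ileum, distal colon, liver and spleen of aged and young mice. Members were all probe sets whose platform annotation named a single gene with a symbol made of Col, a number, the letter a and a number. This gave 82 probe sets for 42 genes, of 45101 probe sets in all and of 18194 genes named by 34958 single-gene probe sets. The rule used symbols only and no measured value. Of the 42 genes, 31 had a signal above a floor, set at the median of all signals, on at least 1 array and 20 had one in each of the 5 tissues.

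RNA came from male mice of the outbred ICR stock aged 28 or 4 months. The aged mice had been bought when 8 months old and the young ones when 2 months old, and all were housed singly under specific-pathogen-free conditions on AIN-93, a purified rodent diet. RNA extracted from each of 9 mice at 28 months and 6 mice at 4 months was pooled in equal amounts by tissue. A pool went onto 1 Affymetrix Mouse Genome 430 2.0 array, so each of the 10 groups held 1 array. Differences between ages have no replicate check, and no test between ages was made within a tissue. The protocol given with the jejunum, ileum and distal colon arrays of 28 months also names mice fed the same diet with LB81 yogurt, and the labels do not say which mice those 3 pools held.

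Collagens are secreted proteins built from 3 chains wound into a triple helix. Fibrillar collagens, such as types I, III and V, assemble into the cable-like fibrils that give the gut wall and organ capsules their strength. Type IV collagens form the sheet-like network of basement membranes under epithelia and around smooth muscle cells and vessels. Type VI collagens form beaded microfibrils between these layers. Fibril-associated collagens decorate fibrils, multiplexins sit at basement membranes, and transmembrane collagens stay anchored in the cell surface. In gut, liver and spleen most collagen is made by fibroblasts, smooth muscle cells and stellate or reticular cells, and basement membrane collagen also by endothelial cells.

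Promoters of 33 of the 42 members were matched by symbol in a RefSeq table of the GRCm38.p6 build. The windows run from 250 bases before to 50 bases after the annotated transcription start. The 4 below belong to chains of the fibrillar and basement membrane classes that carried the lower signal of distal colon. They lie at chr6:4505368-4505667 on the plus strand (Col1a2), chr1:45311288-45311587 on the plus strand (Col3a1), chr8:11312777-11313076 on the minus strand (Col4a1) and chr8:11312555-11312854 on the plus strand (Col4a2). Each is written 5′ to 3′ on the gene's own strand, and capitals mark the TATA box TATAAA, the CCAAT box CCAAT and the GC box GGGCGG, searched on both strands.
Col1a2: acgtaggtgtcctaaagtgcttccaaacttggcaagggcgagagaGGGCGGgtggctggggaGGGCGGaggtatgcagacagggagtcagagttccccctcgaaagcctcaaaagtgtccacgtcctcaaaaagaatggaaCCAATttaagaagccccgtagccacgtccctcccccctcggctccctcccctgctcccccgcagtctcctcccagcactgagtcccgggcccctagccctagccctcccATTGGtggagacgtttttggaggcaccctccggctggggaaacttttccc
Col3a1: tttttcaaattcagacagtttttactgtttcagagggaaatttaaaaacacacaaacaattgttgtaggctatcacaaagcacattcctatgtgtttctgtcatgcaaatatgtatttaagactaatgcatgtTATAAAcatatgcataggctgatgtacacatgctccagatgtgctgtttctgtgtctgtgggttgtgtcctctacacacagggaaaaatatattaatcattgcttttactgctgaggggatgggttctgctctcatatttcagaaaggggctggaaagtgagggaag
Col4a1: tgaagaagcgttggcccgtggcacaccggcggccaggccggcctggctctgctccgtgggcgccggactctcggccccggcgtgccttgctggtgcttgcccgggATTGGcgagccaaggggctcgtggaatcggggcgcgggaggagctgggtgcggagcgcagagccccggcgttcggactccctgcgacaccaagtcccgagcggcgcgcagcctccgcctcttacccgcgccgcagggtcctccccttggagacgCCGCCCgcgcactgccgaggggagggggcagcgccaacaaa
Col4a2: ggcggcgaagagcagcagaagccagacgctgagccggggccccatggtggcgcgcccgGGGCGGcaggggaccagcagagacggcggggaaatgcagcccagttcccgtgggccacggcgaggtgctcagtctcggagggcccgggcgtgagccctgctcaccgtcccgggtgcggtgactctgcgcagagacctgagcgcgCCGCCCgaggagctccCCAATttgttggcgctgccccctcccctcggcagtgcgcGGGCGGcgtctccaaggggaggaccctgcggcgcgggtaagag
The Col1a2 window held CCAAT 109 bases before the start, a second CCAAT on the other strand at the start itself, and GGGCGG at 205 and 188 bases before it. The Col3a1 window held TATAAA 117 bases before the start and neither of the other motifs. The GC content was 61.0% for Col1a2, 37.7% for Col3a1, 74.0% for Col4a1 and 73.7% for Col4a2. Col4a1 and Col4a2 are transcribed away from each other, as is well known for this pair, and their windows shared 78 bases. Over 38 promoters of 35 collagen genes in the table, GGGCGG was found in 60.5%, against 35.7% of all 32851 promoters of the same length. CCAAT was found in 34.2% of the collagen promoters, against 37.4% of all. TATAAA was found in 13.2% of the collagen promoters, against 13.6% of all. A match says only that these letters occur in the window.

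Signals are in arbitrary units after scaling each array to a trimmed mean of 500. The floor was the median of all signals, 111 units, and lower signals were raised to it before a ratio was taken. Genes above the floor at either age count as measured in that tissue. Each gene was read through its brightest probe set, and ratios are log2 values of the 28-month signal divided by the 4-month signal. A gene counted as past the threshold from 1.5-fold, which is 0.58 on the log2 scale. Where a collagen gene had several probe sets, the SD of their ratios was taken. Its median was 0.22 in distal colon, 0.12 in jejunum, 0.10 in ileum, 0.08 in spleen and 0.05 in liver. This SD shows how probe sets differ on the same RNA and does not measure the error between arrays or pools.

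Tissue labels were checked on marker genes. Alb, serum albumin, reached 50608 units in liver at 28 months and 51037 units at 4 months, Ms4a1, a B cell surface protein, 12818 and 14092 units at those ages in spleen, and Hoxb13, a gene of the hind end of the body axis, 8492 and 6355 units in distal colon. The 2 ileum arrays stood apart on genes of the upper small intestine. Lct, lactase, was at 92 units in ileum at 28 months and 14054 units at 4 months, and Gata4, a transcription factor of the upper small intestine, at 108 and 552 units, while Fgf15, a hormone of the ileum, was at 1419 and 210 units. Age and place along the intestine cannot be told apart in ileum. In distal colon Car1, a carbonic anhydrase of the large intestine, was at 6485 units at 28 months and 22226 units at 4 months, and Aqp8, a water channel, at 4737 and 2479 units. The labels do not give the place of sampling along the colon.

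The first comparison asked how collagen genes differed between aged and young mice, tissue by tissue. In distal colon collagen signals were lower at 28 months in nearly every class. Of 28 collagen genes measured there, 26 had a ratio below 0, which is 92.9%, against 44.6% of all 12360 genes measured. Of these, 9 were at least 1.5-fold lower, against a background of 2.35% of all genes measured, and 0 were at least 1.5-fold higher, against 2.57%. The median ratio was -0.40 for collagens and 0.03 for all genes. Among the 21 collagen genes whose brighter colon signal reached 2 floors, 21 were below 0, with a median of -0.46, a selection made after the data were seen. Col5a3, Col20a1, Col6a4 and Col4a6 reached 2 floors at 4 months alone, which fixes their ratios below 0. The 21 of 21 is thus in part set by the filter. At 2-fold only Col1a1 was lower, against a background of 0.526%. Summed over the 42 genes, the collagen signal of distal colon was 38642 units at 28 months and 57800 units at 4 months.

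**Figure D1:**
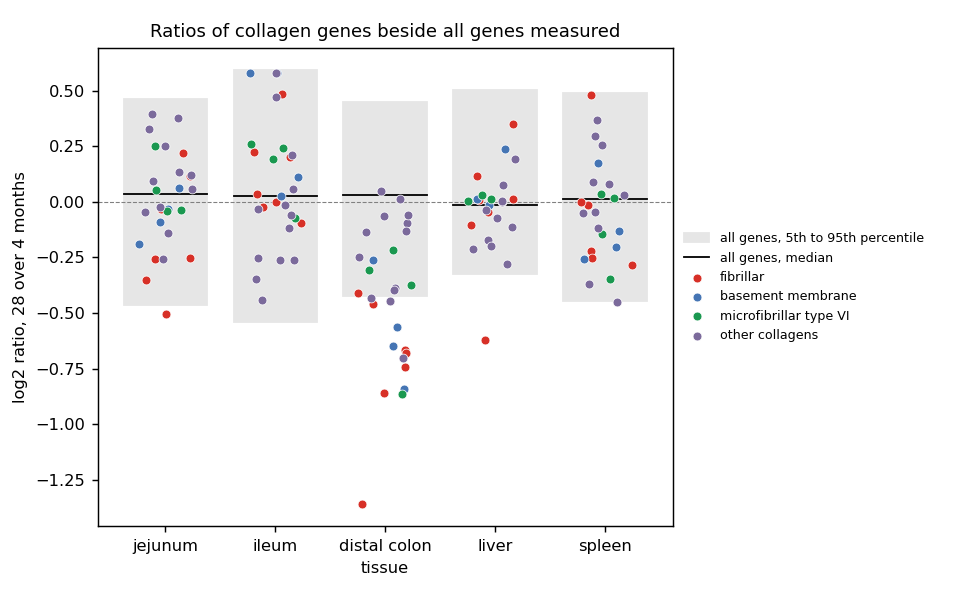
Log2 ratio of signal at 28 over 4 months (vertical axis) for each collagen gene above the floor, by tissue, coloured by class, over the 5th to 95th percentile range (grey) and median (black line) of all genes measured. In distal colon 26 of 28 points lie below 0, while in the other 4 tissues points lie on both sides of 0.

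In the other 4 tissues collagen ratios lay on both sides of 0. In jejunum 14 of 27 measured collagen genes were below 0, against 44.1% of all genes, with a median of -0.03, and 0 were past 1.5-fold, against backgrounds of 3.04% lower and 2.01% higher. In ileum 13 of 28 were below 0, against 46.1%, with a median of 0.03, and 0 were past 1.5-fold, against 4.17% lower and 5.22% higher. In liver 11 of 24 were below 0, against 53.3%, with a median of 0.00, and 1 was at least 1.5-fold lower, against 0.8%, and 0 higher, against 4%. In spleen 14 of 25 were below 0, against 48.1%, with a median of -0.05, and 0 were past 1.5-fold, against 1.95% lower and 3.19% higher. The fibrillar class had 5 of 7 measured genes below 0 in jejunum, with a median of -0.25, and 4 of 6 in spleen, with a median of -0.12, and 0 past 1.5-fold in either. Its median was 0.04 in ileum and 0.01 in liver. The summed collagen signal at 28 and 4 months was 22832 and 24158 units in jejunum, 28399 and 26906 units in ileum, 18506 and 19100 units in liver and 19126 and 21378 units in spleen.

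All 7 fibrillar collagen genes measured in distal colon were below 0, 5 of them past 1.5-fold, with a median of -0.68. Col1a1, which encodes the alpha 1 chain of type I collagen, gave 240 units in distal colon at 28 months and 617 units at 4 months. Its signals at 28 and 4 months were 178 and 252 units in jejunum, 190 and 193 units in ileum, 121 and 122 units in spleen and below the floor at both ages in liver, with 73 and 86 units. The distal colon array of 4 months was the highest of the 10, and the colon ratio of -1.36 was the lowest of any collagen gene in any tissue. Only 37 of the 12360 genes measured in distal colon had a lower ratio. The second Col1a1 probe set gave -0.39 there, with 210 units at 28 months and 275 units at 4 months, and with the floor at percentile 75 the ratio of the brighter one was -0.36.

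Col1a2, the alpha 2 chain of type I collagen, gave 6765 units in distal colon at 28 months and 10720 units at 4 months. Its signals at 28 and 4 months were 2579 and 3074 units in jejunum, 3612 and 3522 units in ileum, 1150 and 1143 units in liver and 5166 and 6283 units in spleen. The colon ratio was -0.66, or 1.58-fold lower, and a dimmer probe set gave -1.39. Both measured probe sets were thus lower at 28 months in distal colon, while liver and ileum hardly differed between ages.

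Col3a1, the single chain of type III collagen, which is abundant in distensible organs, gave 8271 units in distal colon at 28 months and 13862 units at 4 months. At 28 and 4 months it gave 3782 and 4825 units in jejunum, 4865 and 5199 units in ileum, 1389 and 1494 units in liver and 2350 and 2742 units in spleen. It was lower at 28 months in each of the 5 tissues, with ratios of -0.74 in distal colon, -0.35 in jejunum, -0.22 in spleen, -0.11 in liver and -0.10 in ileum. A second probe set gave -0.96 in distal colon, -0.59 in jejunum, -0.22 in ileum and -0.22 in spleen. In liver it stood at the floor, with 111 units at 28 months and 82.6 units at 4 months.

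Col5a1 and Col5a2 encode chains of type V collagen, which starts and limits the growth of type I fibrils. Col5a2 gave 1465 units in distal colon at 28 months and 2659 units at 4 months, a ratio of -0.86. Its signals at 28 and 4 months were 593 and 709 units in jejunum, 913 and 780 units in ileum, 217 and 200 units in liver and 759 and 759 units in spleen. Distal colon was the highest tissue at each age and the one with the largest ratio in size. The second Col5a2 probe set gave -0.57 in distal colon and 0.62 in ileum.

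Col5a1 gave 905 units in distal colon at 28 months and 1448 units at 4 months, a ratio of -0.68. Jejunum gave 424 units at 28 months and 391 units at 4 months, and the same pair was 494 and 494 units in ileum, 275 and 215 units in liver and 734 and 527 units in spleen. Its spleen ratio of 0.48 was the highest of any collagen gene in spleen and opposite in sign to that of distal colon. The other Col5a1 probe sets gave -0.65 and -0.14 in distal colon and 0.18 and 0.22 in spleen.

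Col27a1, a fibrillar collagen best known from cartilage, was the 1 collagen gene past 1.5-fold outside the colon. In liver it gave 1277 units at 28 months and 1961 units at 4 months, a ratio of -0.62, and the second probe set gave -0.70. Its other signals, at 28 and then 4 months, were 611 and 525 units in jejunum, 656 and 571 units in ileum, 579 and 769 units in distal colon and 775 and 923 units in spleen. Liver was thus its highest tissue at both ages, and the liver ratio was lower than those of all but 81 of the 12001 genes measured there. With arrays scaled to equal medians the liver ratio was -0.57, within the threshold. The next collagen ratio in liver was -0.28, for Col13a1.

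**Figure D2:**
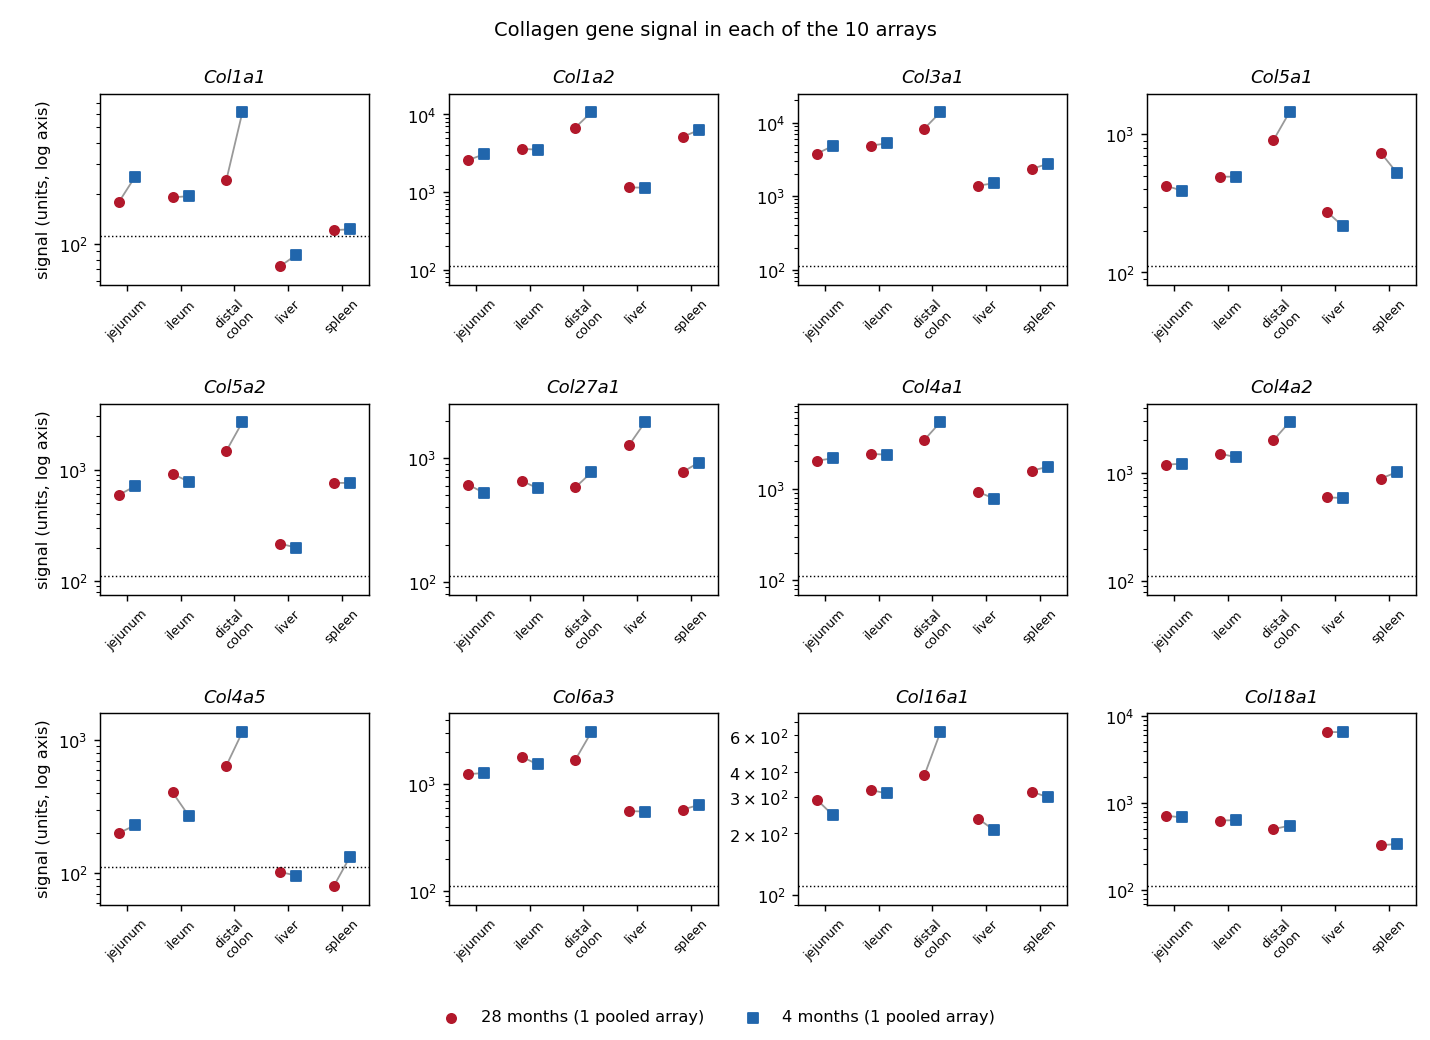
Signal (units, log axis) of 12 collagen genes on each of the 10 arrays, with 28 months as red circles left of 4 months as blue squares in each tissue, 1 pooled array per point, and the floor of 111 units as a dotted line. In distal colon the 28-month point lies below the 4-month point for all 12 genes shown, as for Col1a1 at 240 and 617 units.

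Type IV collagen genes were lower at 28 months in distal colon, and 2 of them, Col4a5 and Col4a6, had ratios of 0.58 in ileum. In distal colon 4 of 4 measured type IV chains were below 0, 2 of them past 1.5-fold, with a median of -0.60. Col4a1, which with Col4a2 forms the type IV collagen found in nearly all basement membranes, gave 3437 units in distal colon at 28 months and 5380 units at 4 months. At 28 and 4 months it gave 2033 and 2163 units in jejunum, 2411 and 2370 units in ileum, 926 and 785 units in liver and 1588 and 1740 units in spleen. Its colon ratio of -0.65 lay just inside the threshold, and a dimmer probe set gave -0.05 there and -0.11 in ileum. The median over its probe sets was -0.35, outside the threshold.

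Col4a2 gave 2000 units in distal colon at 28 months and 2954 units at 4 months, a ratio of -0.56, just outside the threshold. The 28- and 4-month signals were 1192 and 1219 units in jejunum, 1510 and 1399 units in ileum, 593 and 588 units in liver and 887 and 1019 units in spleen. The Col4a1 and Col4a2 pair, whose promoter windows overlap, had ratios of like size in jejunum (-0.09 and -0.03), distal colon (-0.65 and -0.56) and spleen (-0.13 and -0.20). In liver they were 0.24 and 0.01, and in ileum 0.03 and 0.11.

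Col4a5 encodes a chain that joins with that of Col4a6 in the basement membrane around smooth muscle cells. It gave 641 units in distal colon at 28 months and 1147 units at 4 months, a ratio of -0.84, and 404 units in ileum at 28 months and 270 units at 4 months, a ratio of 0.58. Its other signals at 28 and 4 months were 201 and 229 units in jejunum, 102 and 96 units in liver, below the floor, and 80 and 132 units in spleen, where the 28-month signal was below the floor. The second Col4a5 probe set gave -0.61 in distal colon and 0.26 in ileum.

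Col4a6 lies beside Col4a5 on chromosome X. It gave 194 units in distal colon at 28 months and 233 units at 4 months, a ratio of -0.26, and in ileum 183 units at 28 months and 122 units at 4 months, a ratio of 0.58. A second Col4a6 probe set gave -0.70 in distal colon and 0.41 in ileum. The ileum ratio of the first, 0.58, and that of Col4a5 lay just under the 1.5-fold threshold, as did Col13a1, a transmembrane collagen, with 316 units in ileum at 28 months and 211 units at 4 months. Scaled to equal medians, these 3 genes passed the threshold in ileum. Col4a3 and Col4a4, best known from the kidney filter, were below the floor on all arrays.

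Of the type VI chains measured in distal colon, 4 of 4 were below 0, with a median of -0.34. Col6a3, whose chain is the longest of type VI microfibrils, gave 1697 units in distal colon at 28 months and 3093 units at 4 months, a ratio of -0.87. At 28 and 4 months it gave 1245 and 1276 units in jejunum, 1815 and 1535 units in ileum, 560 and 556 units in liver and 580 and 641 units in spleen. At 28 months the ileum signal was the highest of the 5 tissues, and at 4 months that of distal colon. Col6a1 and Col6a2, the partner chains that are neighbours on chromosome 10, had smaller colon ratios of -0.31 and -0.22. The median probe set SD of distal colon was 0.22, and Col6a1 itself had 1 probe set. Col6a4, a chain related to that of Col6a3, had a colon ratio of -0.37.

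Among fibril-associated collagens 5 of 6 measured in distal colon were below 0, with a median of -0.39. Col16a1, a minor component that sits near fibrils and basement membranes, gave 384 units in distal colon at 28 months and 624 units at 4 months, a ratio of -0.70. At 28 and 4 months it gave 292 and 245 units in jejunum, 326 and 313 units in ileum, 236 and 207 units in liver and 320 and 300 units in spleen, so distal colon was the 1 tissue with a ratio below 0. With the floor at percentile 75 its colon ratio was -0.38, outside the threshold. Col12a1, Col14a1 and Col20a1 had colon ratios of -0.45, -0.39 and -0.40, and Col9a3, a cartilage collagen chain read near the floor, one of 0.05. Dimmer probe sets above the floor gave -0.04 for Col12a1, -0.38 for Col14a1, and -0.0004 and 0.05 for Col20a1. The lower colon signal of Col12a1 and Col20a1 thus rests on the brightest probe set of each. The multiplexins Col15a1 and Col18a1 had colon ratios of -0.06 and -0.13, and Col8a1, a network-forming collagen, one of -0.06.

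Other members stayed within the threshold in the tissues where they were measured. Their ratios reached 0.40 in jejunum, for Col13a1, and -0.50 there for Col1a1. In spleen the lowest ratio was at most -0.45, for Col8a2, whose 28-month signal was below the floor. In ileum the lowest was at most -0.44, for Col9a1, with its 28-month signal below the floor. The 11 genes below the floor on all arrays were Col4a3, Col4a4, Col6a5, Col9a2, Col10a1, Col11a1, Col11a2, Col17a1, Col19a1, Col24a1 and Col26a1, with highest signals of 24.7 to 98.1 units. Several of these are cartilage or skin collagens.

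Of the members not yet described, Col2a1, the main fibrillar collagen of cartilage, was above the floor in liver alone, with 134 units at 28 months and 132 units at 4 months, a ratio of 0.01. Col22a1, a fibril-associated collagen, was read near the floor, with ratios of at most -0.25 in ileum and at most -0.04 in liver, where its 28-month signals were below the floor. Col23a1, a transmembrane collagen, gave 254 units in ileum at 28 months and 219 units at 4 months. Its ratios were 0.38 in jejunum, 0.21 in ileum and -0.43 in distal colon. A dimmer Col23a1 probe set had the opposite sign in each segment, with -0.13 in jejunum, -0.47 in ileum and 0.14 in distal colon. Another gave 0.43 in jejunum and -0.08 in ileum and was below the floor in distal colon. Col25a1, also transmembrane, was above the floor on all 10 arrays at 175 to 244 units, with ratios of -0.14 to 0.08. Its second probe set was below the floor on all 10 arrays, at 30.4 to 64.7 units.

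**Figure D3:**
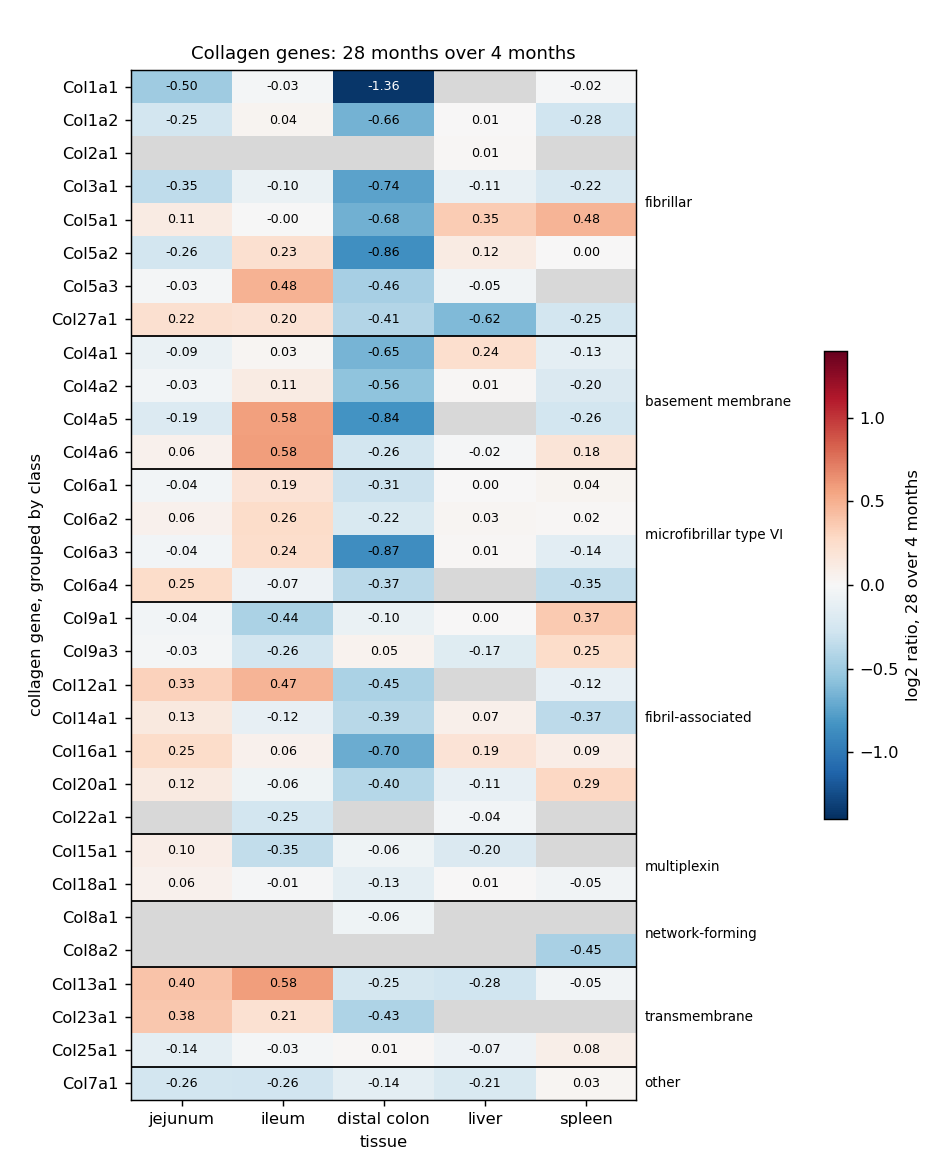
Log2 ratio of 28 over 4 months for the 31 collagen genes above the floor somewhere (lines, grouped by class) in each tissue (columns), blue for lower and red for higher at 28 months, grey where the gene was below the floor at both ages. The distal colon column is blue for 26 of its 28 values, and the 4 measured type IV chains are above 0 in ileum.

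Single probe sets were counted too. Of 46 collagen probe sets above the floor in distal colon, 42 were below 0, against 45.5% of all 20671 single-gene probe sets above the floor there. At least 1.5-fold lower were 14, against 2.72% of all, and at least 1.5-fold higher 0, against 2.52%. Probe sets of 1 gene share the RNA and are not replicates. In bulk tissue RNA, fewer collagen-making cells and less collagen RNA per cell cannot be told apart.

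Genes that act with collagens were read from lists. In distal colon 12 of 13 measured basement membrane partners were below 0, 5 past 1.5-fold, with a median of -0.56. They included the laminin chain genes Lamc1 at -0.83 and Lama2 at -0.75 and Nid1, which links laminin to type IV collagen, at -0.77. Of 18 interstitial matrix partners 16 were below 0, 6 past 1.5-fold, with a median of -0.41, including Fn1 (fibronectin) at -0.87, Thbs2 (thrombospondin 2) at -0.82, Postn (periostin) at -0.75 and Lum, a proteoglycan that binds fibrils, at -0.73. Of 7 genes of procollagen cleavage and cross-linking 6 were below 0, with Pcolce2, an enhancer of procollagen cleavage, at -0.68 and Lox, the cross-linking lysyl oxidase, at -0.67. Of 4 measured collagen receptor genes 3 were below 0, 1 past 1.5-fold, with a median of -0.36. The lowest was Ddr2, a kinase that binds fibrillar collagen, at -0.68, and the highest Ddr1 at 0.32. For all genes of distal colon the median was 0.03, with 44.6% below 0, 2.35% at least 1.5-fold lower and 2.57% at least 1.5-fold higher.

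Genes of collagen folding, breakdown and signalling were counted in the same way, beside the same shares of all genes of distal colon. Of 18 measured genes for chain modification and folding in distal colon, 12 were below 0 and 0 past 1.5-fold, with a median of -0.09. Serpinh1, the collagen chaperone, gave 1443 units at 28 months and 1774 units at 4 months. Of 12 genes of collagen breakdown and its inhibitors 11 were below 0 and 0 past 1.5-fold, with a median of -0.29. Of 13 TGF-beta signalling genes and targets 9 were below 0 and 0 past 1.5-fold, with a median of -0.16.

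Markers of the cells that make collagen, and of other cells of the gut wall, moved on the same arrays. In distal colon 10 of 10 smooth muscle markers were below 0, 3 past 1.5-fold, with a median of -0.52 and a summed signal of 74322 units at 28 months and 105599 units at 4 months. Myh11, smooth muscle myosin, gave 7805 units at 28 months and 13757 units at 4 months. Of 9 fibroblast markers 8 were below 0 and 0 past 1.5-fold, with a median of -0.40 and a sum of 32365 units at 28 months and 41903 units at 4 months. Of 6 measured enteric neuron and glia markers 5 were below 0. Of 6 macrophage markers 4 were below 0 and 2 above, with a median of -0.43. Macrophage marker ratios ran from -0.996 for Mrc1 to 0.35 for Cd68, with Cd163 at -0.80. All 5 measured B cell markers and all 4 T cell markers were above 0, with medians of 0.93 and 0.88, and summed signals at 28 and 4 months of 3024 and 1500 units for B cells and 1030 and 511 units for T cells. Endothelial markers had a median of 0.00 and epithelial markers of 0.01. Of all genes of distal colon 44.6% were below 0 and 2.35% at least 1.5-fold lower, with a median of 0.03. The part of these cell markers in the collagen ratios was not tested.

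In ileum the smooth muscle, fibroblast and matrix partner lists had medians above 0. All 10 smooth muscle markers were above 0, 8 past 1.5-fold, with a median of 0.73 and a sum of 42319 units at 28 months and 25731 units at 4 months. Of 8 measured fibroblast markers 7 were above 0, with a median of 0.40, and of 16 interstitial matrix partners 12, with a median of 0.41. Of all genes measured in ileum 46.1% were below 0 and 5.22% at least 1.5-fold higher, with a median of 0.03. Collagens of ileum had a median of 0.03, with -0.10 for Col3a1 and 0.04 for Col1a2, beside 0.34 for the basement membrane class and 0.22 for type VI. In liver 4 of 6 macrophage markers were at least 1.5-fold higher, against 4% of all genes measured there. Of 10 TGF-beta genes 8 were above 0, while 53.3% of all genes measured in liver were below 0. Ccn2, a matricellular target of TGF-beta, was at 0.80, while 0 collagen genes were past 1.5-fold higher.

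**Figure D4:**
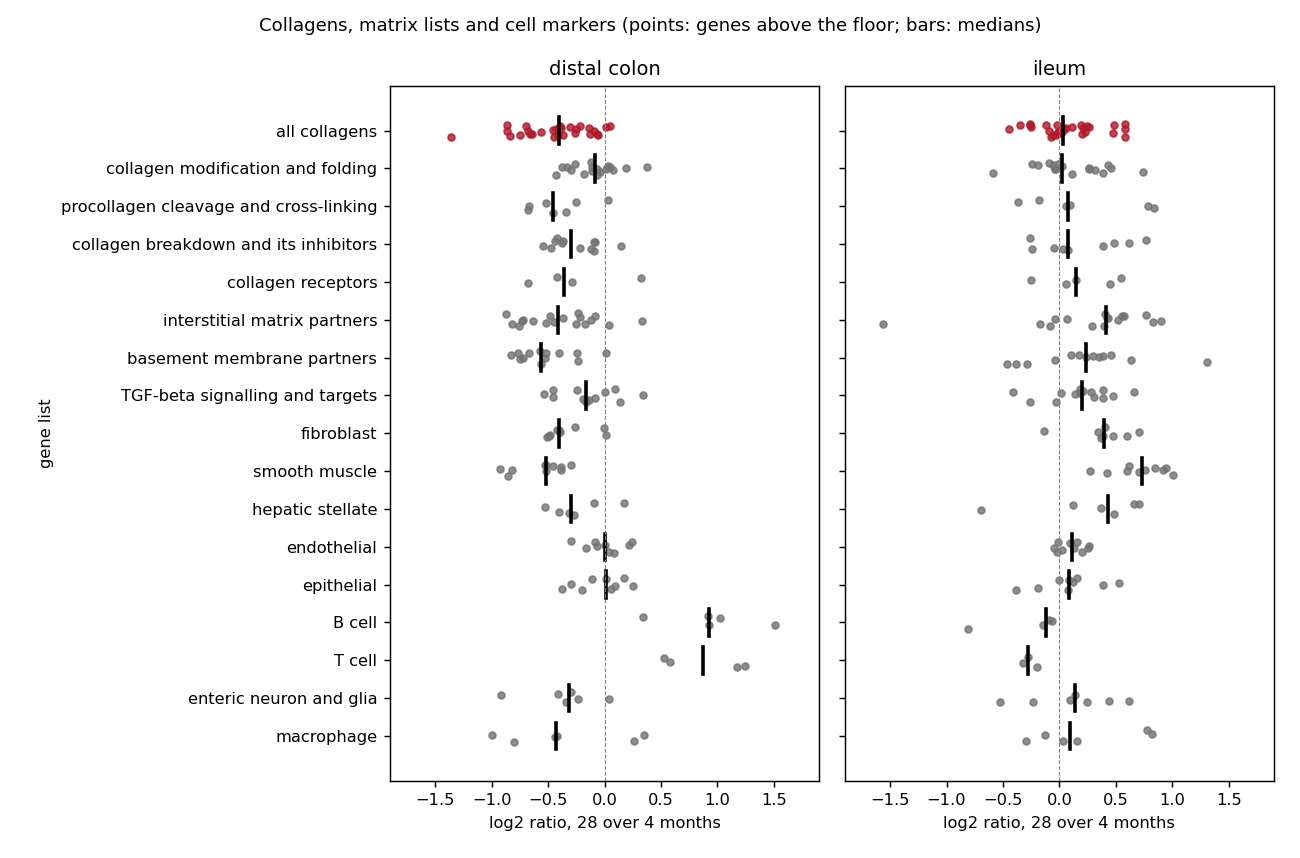
Log2 ratios of 28 over 4 months for collagens (red) and for genes of matrix lists and cell markers (grey) above the floor in distal colon (left) and ileum (right), with medians as black bars. In distal colon the collagen median is -0.40 and the smooth muscle median -0.52, and in ileum they are 0.03 and 0.73.

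RNA integrity, read as the log2 difference between probe sets at the 3′ and the 5′ end of actin, was 0.93 in distal colon at 28 months and 1.12 at 4 months. In liver it was 2.01 at 28 months and 1.70 at 4 months, the 2 largest of the 10 arrays. The same difference for Gapdh was 0.13 in distal colon at 28 months and 0.34 at 4 months. For Gapdh the largest was 1.01, in spleen at 28 months, with 0.89 in spleen at 4 months. Liver gave 0.98 at 28 months and 0.53 at 4 months for Gapdh. The part of RNA integrity in the ratios was not tested.

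Whether a collagen gene differed with age over all 5 tissues was tested with limma, with tissue as a block, so that the tissues stood in for replicates of age. Tissues of an age may share mice and are then not independent. The fits of age made no allowance for this, and their SE and p assume independent tissues. No collagen gene passed an adjusted p of 0.05, with 0 of 31 called by limma, against a background of 0% of 13995 genes. At an unadjusted p below 0.05 there were 2 of 31, Col3a1 and Col7a1, against 6.94% of all genes. Col3a1 averaged -0.30 ± 0.11 (SE) over the tissues, below 0 in 5 of 5, with a limma adjusted p of 0.68. Col7a1, the collagen of anchoring fibrils, averaged -0.17 ± 0.06 (SE), below 0 in 4 of 5, with a limma adjusted p of 0.70. A second fit asked whether the ratio differed between the 3 intestinal segments and the pair of other organs. It called 0 of 31 collagen genes, against 0% of all genes, and 0 of 31 reached an unadjusted p below 0.05, against 6.36%. That distal colon differed from another tissue in its age ratio was not tested, with 1 ratio per tissue.

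The last comparison asked in which tissue each collagen gene was high, with limma on all 10 arrays and the ages standing in for replicates. Distal colon was higher than the mean of the other 4 tissues for 17 of 31 collagen genes at an adjusted p below 0.05, against a background of 26%, and lower for 6, against 17.5%. Signals below the floor were set to it, so differences against such tissues are lower bounds. Values set to the floor do not vary between arrays, so the SE and p of such genes miss that variation. Col4a5, set at the floor in liver and in spleen at 28 months, was at least 4.88-fold higher in distal colon, a log2 difference of 2.29 ± 0.24 (SE), with a limma adjusted p of 0.000753. Col6a2 was higher by 2.21 ± 0.09 (SE), with 5033 units in distal colon at 28 months and 5854 units at 4 months, against 405 and 397 units in liver. Col3a1 was higher by 1.85 ± 0.13 and Col5a2 by 1.86 ± 0.20 (SE), with limma adjusted p of 0.000183 and 0.00091. Col8a1 was above the floor in distal colon alone, with 258 units at 28 months and 270 units at 4 months, and at most 103 units elsewhere. Of the 9 collagen genes at least 1.5-fold lower in distal colon at 28 months, 8 were highest there at both ages. The exception was Col6a3. These 9 were picked by a ratio that a high 4-month colon signal lowers, so the 8 of 9 is partly built in. Distal colon was also highest at both ages for Col4a2, Col4a6, Col6a1, Col6a2, Col8a1 and Col15a1, which were within the threshold. Over all 31 collagen genes tested it was highest for 14 at 28 months and 16 at 4 months.

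Liver was lower than the mean of the other 4 tissues for 17 of 31 collagen genes, against a background of 37.5%, and higher for 7, against 25.9%. Col18a1, a multiplexin known from hepatocytes and the source of endostatin, gave 6567 units in liver at 28 months and 6540 units at 4 months, and 328 to 715 units on the other 8 arrays. Its liver excess was 12.4-fold, 3.63 ± 0.06 (SE) on the log2 scale, with a limma adjusted p of 1.56e-07, and its liver ratio of 28 over 4 months was 0.01. Col5a3, another type V chain, was higher in liver by 1.27 ± 0.16 and Col27a1 by 1.25 ± 0.18 (SE). Among the lower genes, Col6a1 had a log2 difference of -2.52 ± 0.10 and Col1a2 one of -2.04 ± 0.14 (SE).

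Spleen was higher for 3 of 31 collagen genes, against a background of 33.4%, and lower for 14, against 33.3%. The 3 were Col1a2 by 0.86 ± 0.14, Col14a1, a fibril-associated collagen, by 0.84 ± 0.12 and Col7a1 by 0.96 ± 0.08 (SE). Col7a1 gave 291 units in spleen at 28 months and 285 units at 4 months, and 118 to 189 units on the other 8 arrays. Jejunum was higher for 3 of 31, against 19.5%, and lower for 5, against 24.6%, while ileum was higher for 7, against 19.6%, and lower for 3, against 23%. Col6a4 was the gene with the largest excess in both, by 1.48 ± 0.13 in jejunum and 1.60 ± 0.13 in ileum (SE), with 793 and 757 units there at 28 months and 666 and 796 units at 4 months, against 91 to 267 units in the other 3 tissues. A gene high in 1 tissue can be called lower in the rest by this contrast. Col8a1, above the floor in distal colon alone, was called lower in each of the other 4 tissues, at -0.31. Col18a1, high in liver, was called lower in jejunum and ileum, though liver alone stood above jejunum at both ages.

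In the same fit, limma gave Col2a1 an excess of at least 0.26 ± 0.05 (SE) in liver, with an adjusted p of 0.00602. Its arrays outside liver were all below the floor and were set to the same value. This SE and p thus do not measure variation between those arrays. Col23a1 was higher in ileum by at least 0.73 ± 0.15 (SE), with a limma adjusted p of 0.0102, and was below the floor in liver and spleen. That call rests on its brightest probe set alone. A dimmer one gave 115 units in ileum at 28 months and 121 units at 4 months, against 149 and 104 units in jejunum. The other gave 128 and 177 units in ileum and 148 and 161 units in jejunum. Col25a1 was higher in liver by 0.31 ± 0.07 (SE), with a limma adjusted p of 0.00726.

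**Figure D5:**
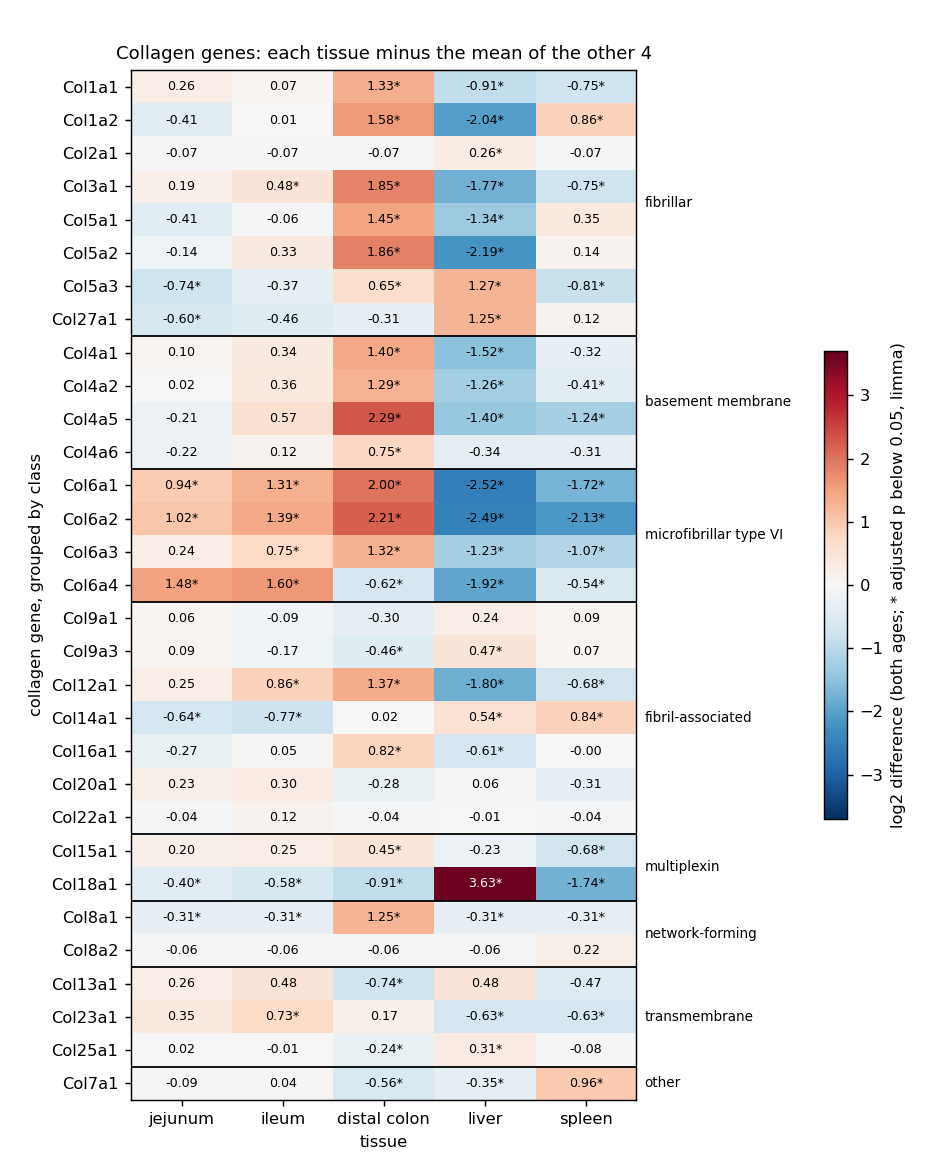
Log2 difference of each tissue from the mean of the other 4, over both ages, for the 31 collagen genes above the floor somewhere, red for higher and blue for lower, with an asterisk where the limma adjusted p was below 0.05. Distal colon carries 17 higher genes, liver 17 lower ones, and Col18a1 in liver, at 3.63, is the largest difference.

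The distance of distal colon from the other segments restates the age ratios, here for genes chosen by those ratios. Distal colon was the tissue with the highest signal for 14 of 31 genes at 28 months and for 16 of 31 at 4 months. Col3a1 was 1.70-fold higher in distal colon than in ileum at 28 months and 2.67-fold higher at 4 months. Col5a2 was 1.61-fold higher at 28 months and 3.41-fold higher at 4 months, and Col4a5 1.59-fold and 4.24-fold. Against jejunum, where Lct was at 3600 units at 28 months and 12629 units at 4 months, Col3a1 was 2.19-fold higher at 28 months and 2.87-fold higher at 4 months, and Col4a5 3.19-fold and 5.01-fold. Col15a1, with a small colon ratio, was 1.24-fold higher than in ileum at 28 months and 1.01-fold higher at 4 months. These values come from the same arrays as the age ratios and were not tested.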

How the data were processed

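The table deposited by the authors holds a log2 signal for each probe set and array, already normalised by a method not given in the sources used here. MAS5 and affy are named in the submitters' processing notes, without version or role. Per the labels' protocols, pooled RNA was amplified with a 3′ in vitro transcription kit, so signals are read near the 3′ end of transcripts. The signal unit is arbitrary, and the number of arrays, 1 per group, limits the precision.

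After conversion to linear units, arrays were scaled to a mean of 500 units after trimming 2% at each end, with factors of 2.42 to 2.57. A floor was set at the median of all signals, 111 units, which 48.9% to 50.9% of probe sets exceeded per array. Of 45101 probe sets, 34958 named 1 gene, 932 several and 9211 were not annotated. The probe set with the highest mean signal stood for each gene. Of the 42 collagen genes 15 had 1 probe set and 27 had several.

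limma 3.58.1 in R 4.3.3 was fitted across 13995 genes above the floor in at least 1 tissue, with Benjamini-Hochberg adjustment over all of them. The tests were run on simulated data first. Python 3.11.15 with pandas 2.3.3 and numpy 2.4.6 was used otherwise. Alternatives were other floors, 16 units added in place of a floor, scaling to equal medians, quantile normalisation, the median over probe sets, leaving out probe sets of several transcripts, a 2-fold threshold and leaving out each tissue.

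Each collagen gene was named. Values on all 10 arrays were given for those past 1.5-fold in a tissue and for Col1a1, Col1a2, Col3a1, Col4a1 and Col4a2, and other list genes were named for the largest ratios past 1.5-fold or as markers. The values of Serpinh1, Col18a1 and the other collagens beyond this were chosen after they were seen. The members and lists were chosen with earlier results of these data known. Replicate numbers were given in the order of the samples and pair nothing.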

Additional observations from a re-analysis of the deposited data

Results flagged for a closer look

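Col4a5, the type IV chain of smooth muscle basement membranes, had ratios of opposite sign in neighbouring parts of the gut, 0.58 in ileum and -0.84 in distal colon. The basement membrane class had a median of 0.34 in ileum and -0.60 in distal colon. The ileum median rests on Col4a5 and Col4a6 at 0.58 each, while Col4a1 and Col4a2 were at 0.03 and 0.11 and the second Col4a1 probe set was at -0.11. The difference between the segments was not tested, since each segment had 1 array per age. The smooth muscle markers moved with it, with medians of 0.73 in ileum and -0.52 in distal colon, and their part was not tested.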

How the results depend on the processing

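In distal colon the median collagen ratio stayed below 0, from -0.31 to -0.51, under every alternative run. Its count of genes at least 1.5-fold lower was within 1.5 times of 9 under the alternative floors, scalings, probe set rules and the restriction to genes of 2 floors, and was 1 at 2-fold. Over the 10 genes past the threshold and Col4a2, 0 of 76 alternative ratios changed sign. Some moved by more than the median probe set SD of their tissue, which is not an error between arrays. With the floor at percentile 75, Col1a1 was at -0.36 and Col16a1 at -0.38. With the median over probe sets, Col1a1 was at -0.88 and Col4a1 at -0.35. Without probe sets that can read several transcripts, Col1a2 was at -1.39.

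With the floor at percentile 75, which left 17 of 31 collagen genes to test, the tissue counts were 11 higher and 2 lower in distal colon, 3 higher and 9 lower in liver, 7 lower in spleen and 3 lower in jejunum, and the spleen median over 10 genes was -0.17. With the floor at percentile 25, 1 gene was lower and 1 higher in ileum and 2 were lower in spleen by 1.5-fold, and 5 were higher in spleen by tissue. Scaling to equal medians gave 3 higher genes in ileum and 0 lower ones in liver, and 2-fold also gave 0 in liver. Adding 16 units gave 1 lower gene in spleen, removing probe sets of several transcripts 1 lower gene in jejunum, and the median over probe sets 3 genes lower by tissue in jejunum. The causes were not tested beyond the change in genes measured. The age fits without each tissue, without the block and on the gut alone called 0 collagen genes. The age fit took tissue as its block. No paired analysis was possible because each group held 1 array, other than that block. Fold sizes near the floor are limited by signal over background.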
